A study of Homo sapiens with 13 samples.

Results

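Cells make cholesterol from acetyl-CoA by way of mevalonate, farnesyl diphosphate and squalene, and make fatty acids from acetyl-CoA through malonyl-CoA. Both routes are under the control of SREBP transcription factors, which the genes SREBF1 and SREBF2 encode. When membrane cholesterol is low, SCAP carries the SREBP precursors from the endoplasmic reticulum to the Golgi, where they are cut and released to the nucleus. When sterols are plentiful, the INSIG proteins hold SCAP back. INSIG1 is itself an SREBP target, so its RNA is a familiar readout of the pathway.

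The 29 genes of this set, taken by symbol from 23637 gene symbols in the RNA tables, fall into 4 roles. The mevalonate pathway, from acetyl-CoA to farnesyl diphosphate, has 7 genes (ACAT2, HMGCS1, MVK, PMVK, MVD, IDI1 and FDPS). The steps from squalene to cholesterol have 9 genes (FDFT1, SQLE, LSS, CYP51A1, TM7SF2, NSDHL, HSD17B7, EBP and DHCR7). Sterol sensing and transport has 7 genes (INSIG1, INSIG2, SREBF1, SREBF2, SCAP, STARD4 and NPC1), and fatty acid synthesis has 6 (ACLY, ACSS2, ACACA, FASN, ELOVL6 and SCD).

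RNA came from TE-7, an established human esophageal epithelial cell line, grown with 5% fetal calf serum and given 100 ng/ml of IL-13, interleukin-13, which drives type 2 inflammation, and from TE-7 cells without IL-13. Each treatment was sequenced at 2, 6 and 24 hr, with 1 library for each treatment and time. Cells with and without 6 hr of IL-13 also gave ChIP-seq libraries of the histone marks H3K4me3, H3K9Ac and H3K27Ac, with 1 library for each mark and treatment. With 1 library a group no single comparison has a replicate check, and 1 cell line limits how far the values extend. Expression is given as RPKM, reads scaled to gene length and to mapped reads. In bulk RNA, fewer cells of a type and less RNA per cell cannot be told apart.

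All 9 epithelial markers reached an RPKM of 1 in every library, with a summed RPKM between 3257 and 4745, while none of 6 hepatocyte and adipocyte markers did. Of 7 leukocyte markers 1 did in every library (CD68), and of 7 fibroblast markers 1 did, or 2 in the control at 2 hr. Read sets held an estimated 13.0 to 26.9 megareads. Each library at 2 and 6 hr had 2 sets, and those at 24 hr had 1, of 14.0 megareads with IL-13 and 13.6 in the control. The median RPKM of all genes was 0.978 to 1.01 at 2 and 6 hr, and 1.37 and 1.35 at 24 hr in the same order. The control libraries at 2 and 6 hr shared 359 identical values above 0, and no other pair of libraries shared any, so these 2 controls appear to have a read set in common and are not independent. The control at 2 hr also stood apart in a list of 12 brain markers, which summed to 31.5 RPKM there and to between 9.18 and 14.0 RPKM in the other 5 libraries. The columns at 24 hr carry a run or passage label that those at 2 and 6 hr lack, so time and run cannot be told apart at 24 hr.

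The promoters of 6 genes are shown as examples, SREBF1 and SREBF2 because they encode the SREBPs, and INSIG1, NPC1, STARD4 and TM7SF2 because their levels changed over time. They are not a ranking, as ACSS2, INSIG2 and ELOVL6 changed more than STARD4 and are not shown. Each is the stretch of 250 bases before the start, from RefSeq on GRCh38.p14, written 5′ to 3′ on the strand of the gene. Capitals mark the motifs searched on both strands, which are the classical sterol regulatory element (its letters are the first run of capitals in SREBF2), the CCAAT box CCAAT, the GC box GGGCGG and the E-box CACGTG. On the opposite strand a CCAAT box reads ATTGG and a GC box reads CCGCCC, and overlapping matches were each counted.
INSIG1 (chr7:155297628-155297877, plus strand): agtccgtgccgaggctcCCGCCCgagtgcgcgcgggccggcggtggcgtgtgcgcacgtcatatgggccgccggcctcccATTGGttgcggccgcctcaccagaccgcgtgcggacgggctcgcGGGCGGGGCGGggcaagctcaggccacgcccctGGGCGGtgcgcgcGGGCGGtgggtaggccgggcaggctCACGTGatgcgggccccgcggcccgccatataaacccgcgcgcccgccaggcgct
NPC1 (chr18:23586507-23586756, minus strand): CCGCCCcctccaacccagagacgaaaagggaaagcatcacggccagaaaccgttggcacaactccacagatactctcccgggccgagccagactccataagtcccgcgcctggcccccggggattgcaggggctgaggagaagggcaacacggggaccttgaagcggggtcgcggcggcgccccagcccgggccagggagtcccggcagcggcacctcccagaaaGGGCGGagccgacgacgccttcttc
STARD4 (chr5:111512536-111512785, minus strand): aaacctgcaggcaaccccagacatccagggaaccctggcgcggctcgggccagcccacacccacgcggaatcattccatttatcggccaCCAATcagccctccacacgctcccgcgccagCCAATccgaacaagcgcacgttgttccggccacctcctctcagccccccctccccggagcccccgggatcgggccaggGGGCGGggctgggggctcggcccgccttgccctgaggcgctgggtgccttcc
SREBF2 (chr22:41832855-41833104, plus strand): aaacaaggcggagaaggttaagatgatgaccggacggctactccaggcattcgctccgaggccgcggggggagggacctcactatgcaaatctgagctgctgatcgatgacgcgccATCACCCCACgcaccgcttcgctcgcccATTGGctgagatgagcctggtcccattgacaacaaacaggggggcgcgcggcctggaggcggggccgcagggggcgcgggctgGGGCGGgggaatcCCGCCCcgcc
SREBF1 (chr17:17836987-17837236, minus strand): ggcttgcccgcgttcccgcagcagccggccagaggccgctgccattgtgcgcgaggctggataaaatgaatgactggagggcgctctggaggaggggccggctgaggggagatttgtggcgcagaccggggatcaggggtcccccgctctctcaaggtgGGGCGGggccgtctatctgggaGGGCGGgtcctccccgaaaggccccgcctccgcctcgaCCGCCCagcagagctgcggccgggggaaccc
TM7SF2 (chr11:65111622-65111871, plus strand): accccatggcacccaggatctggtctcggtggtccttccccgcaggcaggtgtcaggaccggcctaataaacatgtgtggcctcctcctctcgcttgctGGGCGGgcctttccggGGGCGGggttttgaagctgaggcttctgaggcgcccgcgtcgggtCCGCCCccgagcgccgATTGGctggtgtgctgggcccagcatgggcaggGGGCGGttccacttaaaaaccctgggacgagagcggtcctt

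The exact sterol regulatory element was found in SREBF2, with its first base 134 bases before the start, and in none of the other 24 members with a promoter in the table. Over all 27305 genes with a promoter it was found in 0.0439%. SREBF2 also had a CCAAT box 106 bases before the start and 2 GC boxes nearer to it. INSIG1 had an E-box 55 bases before the start, a CCAAT box at 170 bases and 5 GC boxes. STARD4 had 2 CCAAT boxes, at 161 and 130 bases, while NPC1 and SREBF1 had GC boxes and no CCAAT box in this window. Over the 25 matched members a CCAAT box was found in 18 (72%, against 37.0% of all genes), a GC box in 24 (96%, against 46.2%) and an E-box in 2 (8%, against 7.73%). All genes here were not limited to expressed ones, while every member was expressed. The share over expressed genes was not computed, so these gaps cannot be read as a trait of the members. A match is a string of letters and no evidence of binding.

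Every one of the 29 genes was expressed in every library, and their levels spanned 2 orders of magnitude. SCD, the desaturase that makes oleic acid, was the most abundant, with a mean of 353 RPKM. FDPS, which makes farnesyl diphosphate, had a mean of 121 RPKM. INSIG2, the second INSIG protein, had the lowest single value, 3.53 RPKM with IL-13 at 2 hr. The levels plotted by library show IL-13 and control lines running close together for most genes and larger differences between times.

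**Figure D1:**
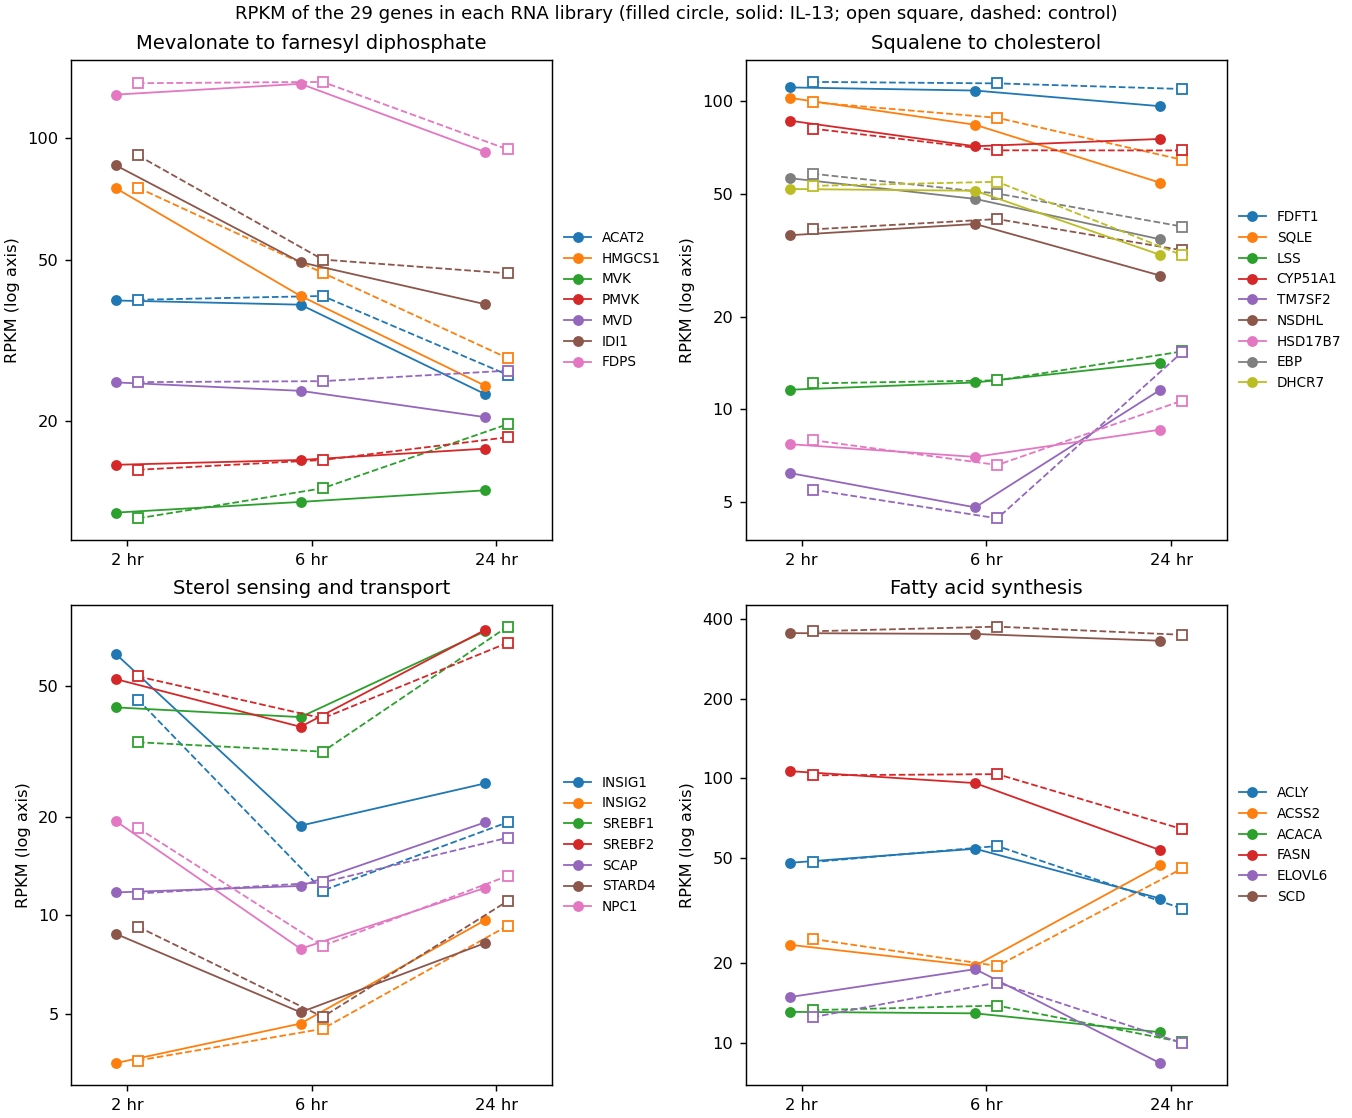
RPKM (log axis) of each of the 29 genes at 2, 6 and 24 hr, in 4 panels by role; filled circles with solid lines are IL-13 libraries and open squares with dashed lines control libraries, 1 library each. INSIG1 and NPC1 are lower at 6 hr than at 2 hr with both treatments, and SCD lies between 331 and 374 RPKM throughout.

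Differences between IL-13 and control were small. None of the 29 genes differed 2-fold between IL-13 and control at any time, and INSIG1 had the highest ratio of the members at 2, 6 and 24 hr. At 24 hr all 7 mevalonate genes and 7 of the 9 squalene-to-cholesterol genes had log2 ratios below 0, against 3 of 7 sensing and transport genes and 3 of 6 fatty acid genes. Over all genes compared 45.4% were below 0 at that time. A gene counted as changed when it differed at least 2-fold on log2(RPKM + 0.1) and reached an RPKM of 1 in the higher library. Over all genes compared, 1%, 1.07% and 2.16% passed this rule at 2, 6 and 24 hr (0.658%, 0.753% and 0.886% as higher, 0.342%, 0.318% and 1.27% as lower), so a count of 0 among 29 members is near the background.

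INSIG1 (hg19 chromosome 7, 155089486 to 155101945, plus strand) had 62.8, 18.8 and 25.3 RPKM with IL-13 at 2, 6 and 24 hr, against 45.6, 11.9 and 19.2 RPKM in the controls. The IL-13 library was the higher one at each time, by 1.38-fold, 1.58-fold and 1.32-fold. On the log2 scale the ratios were 0.46, 0.65 and 0.39, and 2.37%, 1.4% and 5.73% of all genes compared had ratios at least as high. In limma over the 3 times, with time as a term, the IL-13 effect on INSIG1 was 0.50 ± 0.07 (SE) and did not pass (Benjamini-Hochberg adjusted p = 0.163). Without the 2 hr pair, which holds the control with the high brain markers, the limma effect was 0.52 (adjusted p = 0.383).

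SREBF1 (hg19 chromosome 17, 17714663 to 17740325, minus strand), which encodes the SREBP forms that favour lipogenic genes, had 43.1, 40.3 and 73.7 RPKM with IL-13 at 2, 6 and 24 hr, against 33.7, 31.6 and 76.1 RPKM in the controls. It was higher with IL-13 at 2 and 6 hr, by 1.28-fold at each, and slightly lower at 24 hr, with a ratio of 0.969. The limma effect over the 3 times was 0.22 ± 0.10 (SE, adjusted p = 0.367). At 6 hr SREBF1 had an unadjusted p of 0.0300 in the authors' deposited table, with an adjusted p of 1.

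The other regulators showed smaller differences. SREBF2, which encodes the SREBP form that favours cholesterol genes, had 52.6, 37.6 and 74.4 RPKM with IL-13 at 2, 6 and 24 hr, against 53.6, 39.9 and 67.9 RPKM in the controls. SCAP, the SREBP escort, had 11.7, 12.3 and 19.2 RPKM with IL-13, against 11.6, 12.6 and 17.2 RPKM in the controls. INSIG2 (hg19 chromosome 2, 118846050 to 118867597, plus strand) had 3.53, 4.66 and 9.66 RPKM with IL-13, against 3.60, 4.49 and 9.27 RPKM in the controls. Differences between treatments at 1 time were small beside those between 6 and 24 hr for these 3 genes.

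STARD4, a soluble sterol carrier, had 8.77, 5.05 and 8.22 RPKM with IL-13 at 2, 6 and 24 hr, against 9.22, 4.89 and 11.04 RPKM in the controls. Its log2 ratios were -0.07, 0.05 and -0.42, so the treatments lay apart mainly at 24 hr, and the limma effect was -0.15 ± 0.11 (SE, adjusted p = 0.530). NPC1 (hg19 chromosome 18, 21111463 to 21166581, minus strand), which exports cholesterol from lysosomes, had 19.4, 7.89 and 12.1 RPKM with IL-13, against 18.5, 8.06 and 13.2 RPKM in the controls.

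Among mevalonate genes the lower values with IL-13 were mainly at 24 hr. MVK, mevalonate kinase (hg19 chromosome 12, 110011500 to 110035071, plus strand), had 11.9, 12.6 and 13.5 RPKM with IL-13 at 2, 6 and 24 hr, against 11.5, 13.6 and 19.6 RPKM in the controls. Its log2 ratio of -0.54 at 24 hr was the lowest of the 29 genes at any time. In the authors' deposited table MVK had an unadjusted p of 0.0240 at 24 hr and an adjusted p of 0.879, the smallest of any member at any time.

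MVD, mevalonate diphosphate decarboxylase, had 24.9, 23.7 and 20.4 RPKM with IL-13, against 24.9, 25.1 and 26.6 RPKM in the controls. HMGCS1, which makes HMG-CoA, had 75.2, 40.7 and 24.4 RPKM with IL-13, against 75.4, 46.4 and 28.6 RPKM in the controls. IDI1, isopentenyl diphosphate isomerase, had 85.6, 49.3 and 38.8 RPKM with IL-13, against 90.6, 50.1 and 46.3 RPKM in the controls. For all 3 the IL-13 library was the lower one at each time, at 2 hr by very little for MVD and HMGCS1. Their limma effects were -0.15 ± 0.09, -0.14 ± 0.06 and -0.12 ± 0.06 in that order (SE, adjusted p = 0.448, 0.364 and 0.421), and that of MVK was -0.20 ± 0.13 (SE, adjusted p = 0.482). FDPS, PMVK and ACAT2 had log2 ratios between -0.16 and -0.02 at 24 hr.

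In the steps from squalene on, TM7SF2 (hg19 chromosome 11, 64879341 to 64883707, plus strand), a sterol C14 reductase, had 6.21, 4.81 and 11.6 RPKM with IL-13 at 2, 6 and 24 hr, against 5.49, 4.43 and 15.3 RPKM in the controls. It was higher with IL-13 at 2 and 6 hr and lower at 24 hr. NSDHL, a sterol C4 dehydrogenase, had 36.7, 39.9 and 27.2 RPKM with IL-13, against 38.4, 41.4 and 32.8 RPKM in the controls, with a limma effect of -0.13 ± 0.06 (SE, adjusted p = 0.398). SQLE, squalene epoxidase, and HSD17B7, a sterol ketoreductase, had log2 ratios of -0.25 and -0.31 at 24 hr. HSD17B7 has a close relative, HSD17B7P2, listed at 2.95 to 5.26 RPKM, and how reads shared by them were counted is not given, so its values are uncertain. CYP51A1, which removes the C14 methyl group of lanosterol, had ratios above 0 at all 3 times, with a highest value of 0.12.

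In fatty acid synthesis, ELOVL6, which lengthens palmitate, had 14.9, 19.0 and 8.40 RPKM with IL-13 at 2, 6 and 24 hr, against 12.5, 16.9 and 9.999 RPKM in the controls. It too was higher with IL-13 at 2 and 6 hr and lower at 24 hr. FASN, fatty acid synthase, had 106, 95.9 and 53.6 RPKM with IL-13, against 103, 104 and 64.3 RPKM in the controls. ACSS2, which makes acetyl-CoA from acetate, had 23.5, 19.6 and 47.0 RPKM with IL-13, against 24.7, 19.6 and 45.6 RPKM in the controls. ACLY, which makes acetyl-CoA from citrate, ACACA, acetyl-CoA carboxylase, and SCD had log2 ratios between -0.10 and 0.13 at all 3 times.

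Log2 ratios were below 0 in 18, 19 and 20 of the 29 members at 2, 6 and 24 hr, against 49.2%, 51.5% and 45.4% of all genes compared. The median of the members was -0.01, -0.03 and -0.12, against 0.00, -0.00 and 0.02 over all genes. At 24 hr the medians by role were -0.23 for mevalonate, -0.19 for squalene to cholesterol, 0.06 for sensing and transport and -0.02 for fatty acid synthesis. The summed RPKM of the epithelial markers was also lower with IL-13 at 24 hr, 3257 against 4745 RPKM in the control. By gene 7 of the 9 were lower, TP63 by very little, and 2 higher (KRT18 and EPCAM). KRT5 weighed heavily in the sum, with 1323 RPKM against 2200 RPKM in the control. The part of these markers in the ratios of the members was not tested.

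In limma over the 3 times, 0 of 29 members and 0 of 11953 genes passed an adjusted p of 0.05 for IL-13, a background of 0%. Before adjustment 2025 genes (16.9%) had p under 0.05, and INSIG1 was the only member among them. The fit took the controls at 2 and 6 hr as independent, though they appear to share a read set, so its SE and p are uncertain. By the adjusted p of the authors' deposited table, 0 members passed 0.05 at any time, against 0.0127%, 0.351% and 0.592% of all genes at 2, 6 and 24 hr.

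**Figure D2:**
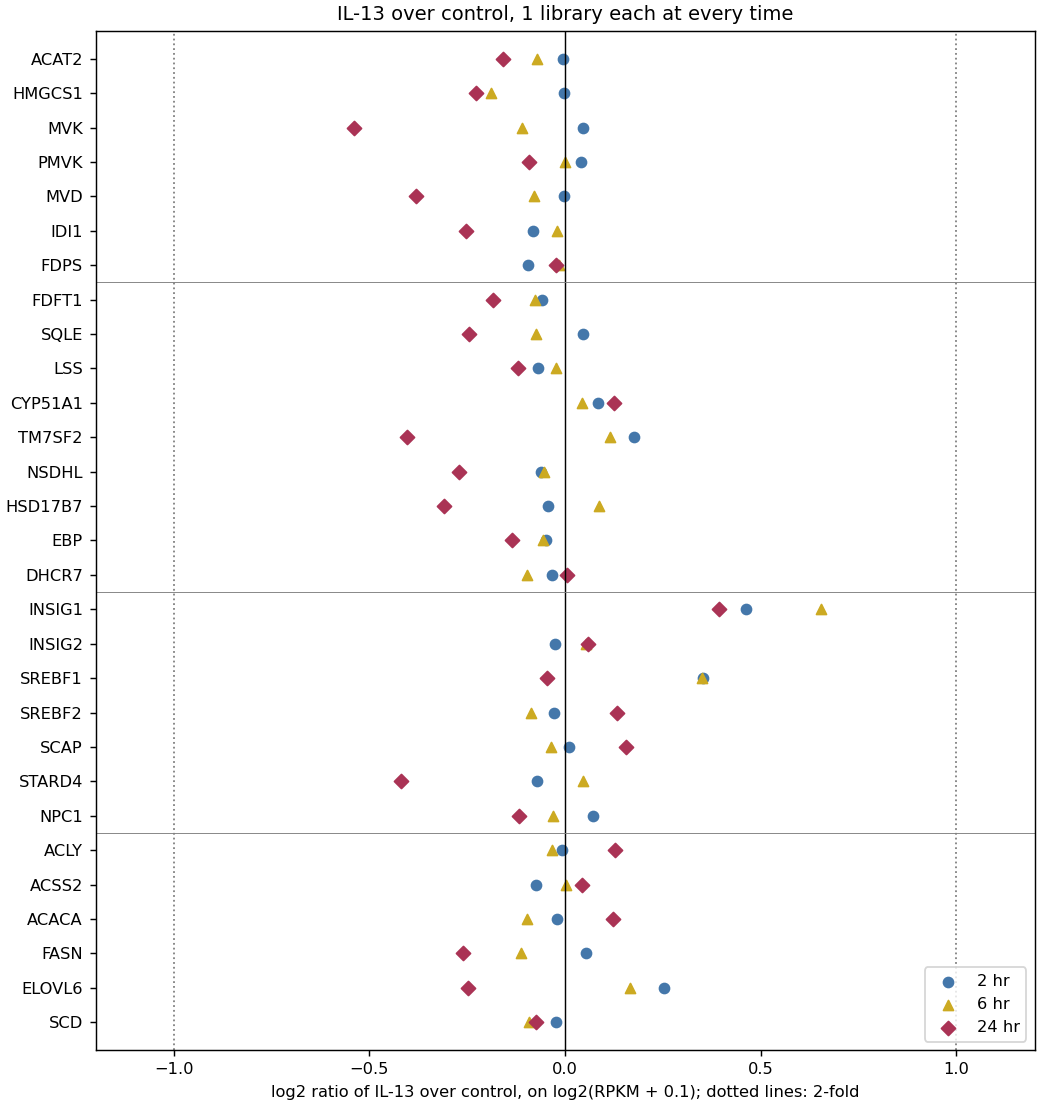
Log2 ratio of IL-13 over control, on log2(RPKM + 0.1), for the 29 genes by role at 2 hr (circles), 6 hr (triangles) and 24 hr (diamonds), 1 library each; dotted lines mark 2-fold. INSIG1 stands highest at each time, between 0.39 and 0.65, and all 7 mevalonate genes lie below 0 at 24 hr, against 45.4% of all genes.

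Neighbouring lists also held no 2-fold change with IL-13. Of 17 other sterol pathway genes, 0 passed the size rule at any time. Of 7 sterol excess and oxysterol response genes, 5 or 6 could be compared and 0 passed. Of 24 other fatty acid and lipid genes, 21 or 22 could be compared and 0 passed. In limma 0 genes of these lists passed for IL-13. An unadjusted p under 0.05 was found for 4 of 17, 2 of 5 and 3 of 21 genes tested, in that order, against 16.9% of all genes.

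Changes between times were larger than the IL-13 ratios for several genes, and the fall of INSIG1 between 2 and 6 hr was the largest change of any member between successive times. Of the 8 members that fell between 2 and 6 hr, 4 were sensing and transport genes and 2 mevalonate genes. Over all genes 10% fell and 18.3% rose in that interval. Between 6 and 24 hr, when 46.6% of all genes rose and 26.1% fell, all 7 sensing and transport genes rose. Of the enzymes 11 fell, among them ELOVL6, FASN and DHCR7, and 4 rose, which were TM7SF2, ACSS2, HSD17B7 and LSS. These calls come from limma with both libraries of a time and treatment as a term, at a Benjamini-Hochberg adjusted p under 0.05, and the labels do not say that libraries came from separate cultures.

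At 6 hr compared with 2 hr, 8 of 29 members were lower and 1 was higher, against 10% of all genes lower and 18.3% higher. With the libraries scaled to the same median, 9 members were lower and 1 higher, against 11.7% lower and 10.5% higher. INSIG1 fell by 1.83 ± 0.08 on the log2 scale (SE, limma adjusted p = 0.00435), which is 3.56-fold, and NPC1 fell by 1.24 ± 0.07 (SE, adjusted p = 0.00599), which is 2.36-fold. STARD4, IDI1 and HMGCS1 fell by 0.84 ± 0.13, 0.82 ± 0.08 and 0.79 ± 0.08 (SE, limma adjusted p = 0.0233, 0.0120 and 0.0124). SREBF2 fell by 0.45, ACSS2 by 0.30 and CYP51A1 by 0.25, and INSIG2 rose by 0.35. Without the filter on low RPKM only INSIG1 and NPC1 passed, 2 lower and 0 higher. With the filter, 4 of 7 sensing and transport genes were lower and 1 higher. So were 2 of 7 mevalonate genes, 1 of 9 squalene-to-cholesterol genes and 1 of 6 fatty acid genes lower. The fit takes the controls at 2 and 6 hr as independent, though they appear to share a read set. The same fit, with a shared estimate of spread for each gene, gave the changes of the later interval and the IL-13 effects over all times. The SE and adjusted p of both intervals and of these IL-13 effects are therefore uncertain.

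Within each treatment, INSIG1 and NPC1 were the members that were 2-fold lower at 6 hr than at 2 hr, against 2.9% of genes lower (3.42% either way) in the IL-13 libraries and 2.36% lower (2.56% either way) in the controls. With IL-13 the falls were 3.35-fold for INSIG1 and 2.46-fold for NPC1, and in the controls they were 3.83-fold and 2.29-fold. The falls were thus present in the IL-13 libraries, which share no identical value with each other, as well as in the controls, which appear to share a read set. The falls in the controls also rest on the 2 hr library with the high brain markers. No member was 2-fold higher in either treatment, against 0.522% of genes with IL-13 and 0.2% in the controls.

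At 24 hr compared with 6 hr, 11 members were higher and 11 lower, against 46.6% of all genes higher and 26.1% lower. With the libraries scaled to the same median the members split into 9 higher and 16 lower, against 31.4% higher and 40.3% lower. The median change over all genes was 0.18 as deposited and -0.08 after scaling, and that of the members was -0.06 and -0.33. With 72.7% of all genes called either way, a call of a single member is not unusual here. The SE and adjusted p come from the fit with the shared read set and are uncertain here as well.

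The sensing and transport genes rose under both scalings, 7 of 7. SREBF1 rose by 1.07 ± 0.12, INSIG2 by 1.03 ± 0.06, STARD4 by 0.93 ± 0.13 and SREBF2 by 0.87 ± 0.08 on the log2 scale (SE, limma adjusted p = 0.00228, 0.000526, 0.00391 and 0.00111). NPC1, INSIG1 and SCAP rose by 0.66, 0.56 and 0.55. INSIG1 and NPC1 nevertheless stayed below their levels of 2 hr, 2.49-fold lower with IL-13 and 2.37-fold lower in the controls for INSIG1, and 1.60-fold and 1.40-fold lower in the same order for NPC1. The highest RPKM of INSIG2, SREBF1, SREBF2 and SCAP were all at 24 hr.

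Among the enzymes, 2 genes rose more than 2-fold in the values as deposited. TM7SF2 rose by 1.51 ± 0.16 on the log2 scale (SE, limma adjusted p = 0.00195) and ACSS2 by 1.24 ± 0.06 (SE, adjusted p = 0.000447). After scaling their changes were 1.25 and 0.98, the latter just under 2-fold. HSD17B7 rose by 0.49 and LSS, lanosterol synthase, by 0.26, and after scaling neither passed, with changes of 0.23 and 0.00. The enzymes that fell did so under both scalings. ELOVL6 fell by 0.96 ± 0.14 and FASN by 0.76 ± 0.09 (SE, limma adjusted p = 0.00449 and 0.00261). After scaling their changes were -1.22 and -1.02, both past 2-fold. DHCR7, which makes the last step to cholesterol by one route, fell by 0.74, HMGCS1 by 0.72, ACLY by 0.70, and ACAT2, a cytosolic thiolase, by 0.69.

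FDPS, SQLE, NSDHL, EBP, a sterol isomerase, and ACACA fell by 0.56, 0.54, 0.44, 0.39 and 0.34 in that order. IDI1, FDFT1, which makes squalene, SCD, MVD and CYP51A1 passed as lower after scaling only, and CYP51A1 had opposite signs, 0.04 as deposited and -0.22 after scaling. By role, 0 mevalonate genes were higher and 3 lower, 3 squalene-to-cholesterol genes were higher and 4 lower, and 1 fatty acid gene was higher and 4 lower. After scaling these became 0 and 5, 1 and 6, and 1 and 5. FDFT1 and SCD changed by -0.11 and -0.09 as deposited.

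**Figure D3:**
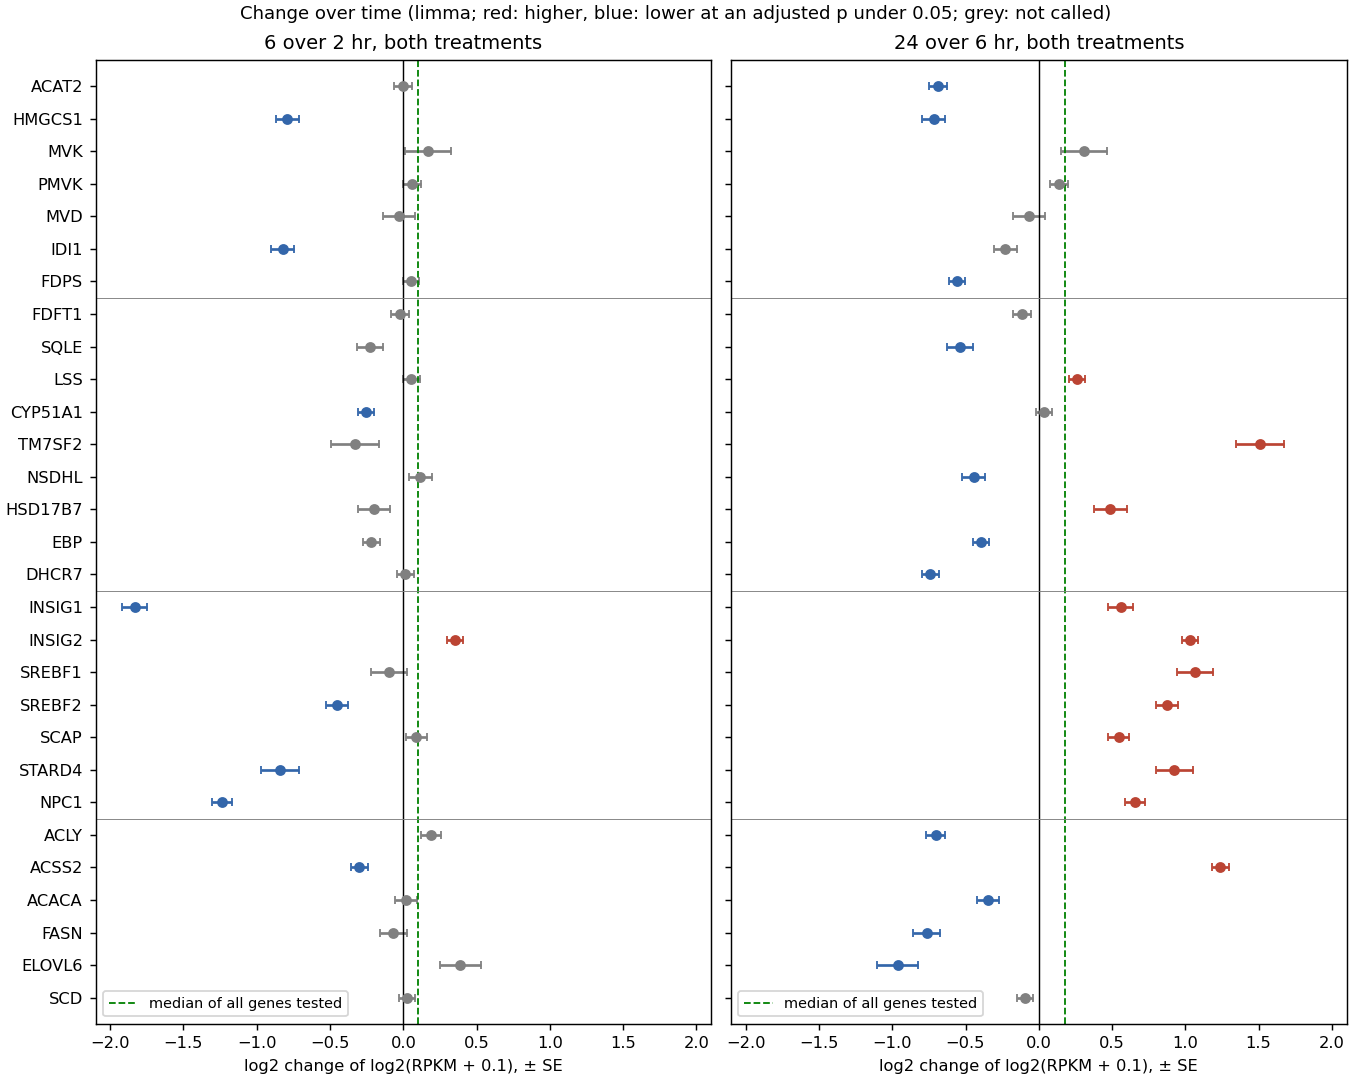
Log2 change with its SE (bars) of each of the 29 genes from limma on 2 libraries a time, at 6 over 2 hr (left) and 24 over 6 hr (right), with red for higher, blue for lower and grey for genes not called, and a dashed line at the median of all genes tested. The block of 7 sensing and transport genes lies right of 0 at 24 over 6 hr, and INSIG1 at -1.83 is the lowest point at 6 over 2 hr.

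The 2-fold calls within each treatment at 24 over 6 hr were 3 higher and 1 lower with IL-13, against 14.9% and 5.01% of genes (19.9% either way), and 5 higher and 0 lower in the controls, against 16.2% and 6.09% (22.3% either way). Centred on the median of all genes, 2 members were higher and 2 lower with each treatment. Over all genes, centring gave 1336 higher and 990 lower of 12530 with IL-13. In the controls it gave 1436 higher and 1191 lower of 12587. With IL-13 TM7SF2, INSIG2 and ACSS2 were higher, by 2.40-fold, 2.07-fold and 2.40-fold, and ELOVL6 was 2.26-fold lower. In the controls TM7SF2, SREBF1, ACSS2, STARD4 and INSIG2 were higher, by 3.46-fold, 2.41-fold, 2.33-fold, 2.26-fold and 2.06-fold. SREBF1 and STARD4 were 1.83-fold and 1.63-fold higher with IL-13, and ELOVL6 was 1.69-fold lower in the controls. Whether the treatments differ in these changes was not tested.

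Other genes of the pathways were compared at 24 over 6 hr in limma, where 46.6% of all genes were higher and 26.1% lower, or 31.4% and 40.3% after scaling. Of 17 other sterol pathway genes, 13 were higher and 3 lower, and with the libraries scaled to the same median 6 were higher and 3 lower. Of 21 other fatty acid and lipid genes tested, 12 were higher and 2 lower, and 9 higher and 7 lower after scaling. Of 5 oxysterol response genes tested, 2 were higher and 1 lower, and 2 higher and 2 lower after scaling.

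Peaks of all 3 marks were listed at the starts of these genes, and the share of all genes with such peaks was not computed. All 29 genes had at least 1 peak of H3K4me3, H3K9Ac and H3K27Ac assigned to their starts, with 36, 35 and 38 peaks in that order. The authors' M is the log2 ratio of the 2 libraries of a mark, named library 1 and library 2, and which of them was treated is not stated, so no direction of IL-13 can be given. A peak was counted where the libraries differed at least 2-fold (M of 1 or more, or of -1 or less) and the level given by the authors' M and A reached 30 in the higher one. This level minimum left 30, 31 and 35 peaks of 27, 28 and 29 members to compare. EBP and HSD17B7 for H3K4me3, and HSD17B7 for H3K9Ac, had only peaks called in 1 library with levels under 30.

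For H3K4me3, a mark of active promoters, 4 peaks were higher in library 1 and 2 in library 2, against 6.02% and 4.82% of all peaks. INSIG2 had the largest ratio, with M of 4.06 and levels of 33.4 in library 1 and 2.00 in library 2, at a peak called in library 1 only. Of 9906 peaks, 2 (0.0202%) had an M at least as high, that of INSIG2 among them. A second H3K4me3 peak at the same INSIG2 start, called in both libraries, had M of 0.21 with levels of 89.0 and 76.9, so the start was marked in both.

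ACAT2, NSDHL and IDI1 were higher in library 1 with M of 1.44, 1.36 and 1.12. SCAP and SREBF1 were higher in library 2 with M of -1.17 and -1.12, at levels of 43.6 in library 1 and 98.0 in library 2 for SCAP, and of 59.7 and 130 in the same order for SREBF1. The ACAT2 peak was also listed for LOC100129518 and the NSDHL peak for CETN2, so they cannot be assigned to 1 gene. This ACAT2 peak was called in library 1 only. Another at the same start, called in both libraries, had M of -0.13 with levels of 17.3 and 19.0.

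For H3K9Ac, an acetylation of active promoters, INSIG2 was higher in library 1, with M of 1.26 and levels of 82.7 and 34.5 in libraries 1 and 2. ACSS2 had a peak called in library 2 only, with M of -1.27, beside one called in both with M of 0.28, and both peaks were also listed for GGT7. This made 1 peak in each direction, against 3.79% and 3.59% of all peaks.

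For H3K27Ac, which marks active promoters and enhancers, LSS, ACSS2, ACAT2 and FDPS were higher in library 1, with M of 1.29, 1.15, 1.09 and 1.05, and EBP was higher in library 2, with M of -1.11. These 4 and 1 peaks stand against 5.04% and 3.71% of all peaks. FDPS had the highest levels of these, 650 in library 1 and 314 in library 2. The LSS peak was also listed for MCM3AP-AS1, the ACSS2 peak for GGT7 and the ACAT2 peak for LOC100129518. This ACSS2 peak was called in library 1 only. A larger one at the same starts, called in both libraries, had M of 0.29 with levels of 232 and 189.

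Over the 30, 31 and 35 peaks at or above the level minimum, the median M was -0.02, 0.05 and 0.13 for the 3 marks, against 0.07, 0.07 and 0.08 over all peaks. INSIG1, the member with the highest RNA ratio of IL-13 over control, had M of -0.21, 0.01 and -0.04 for H3K4me3, H3K9Ac and H3K27Ac, so its start did not stand apart in any mark. SREBF1 and SREBF2 had M within 0.13 of 0 for both acetylation marks.

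**Figure D4:**
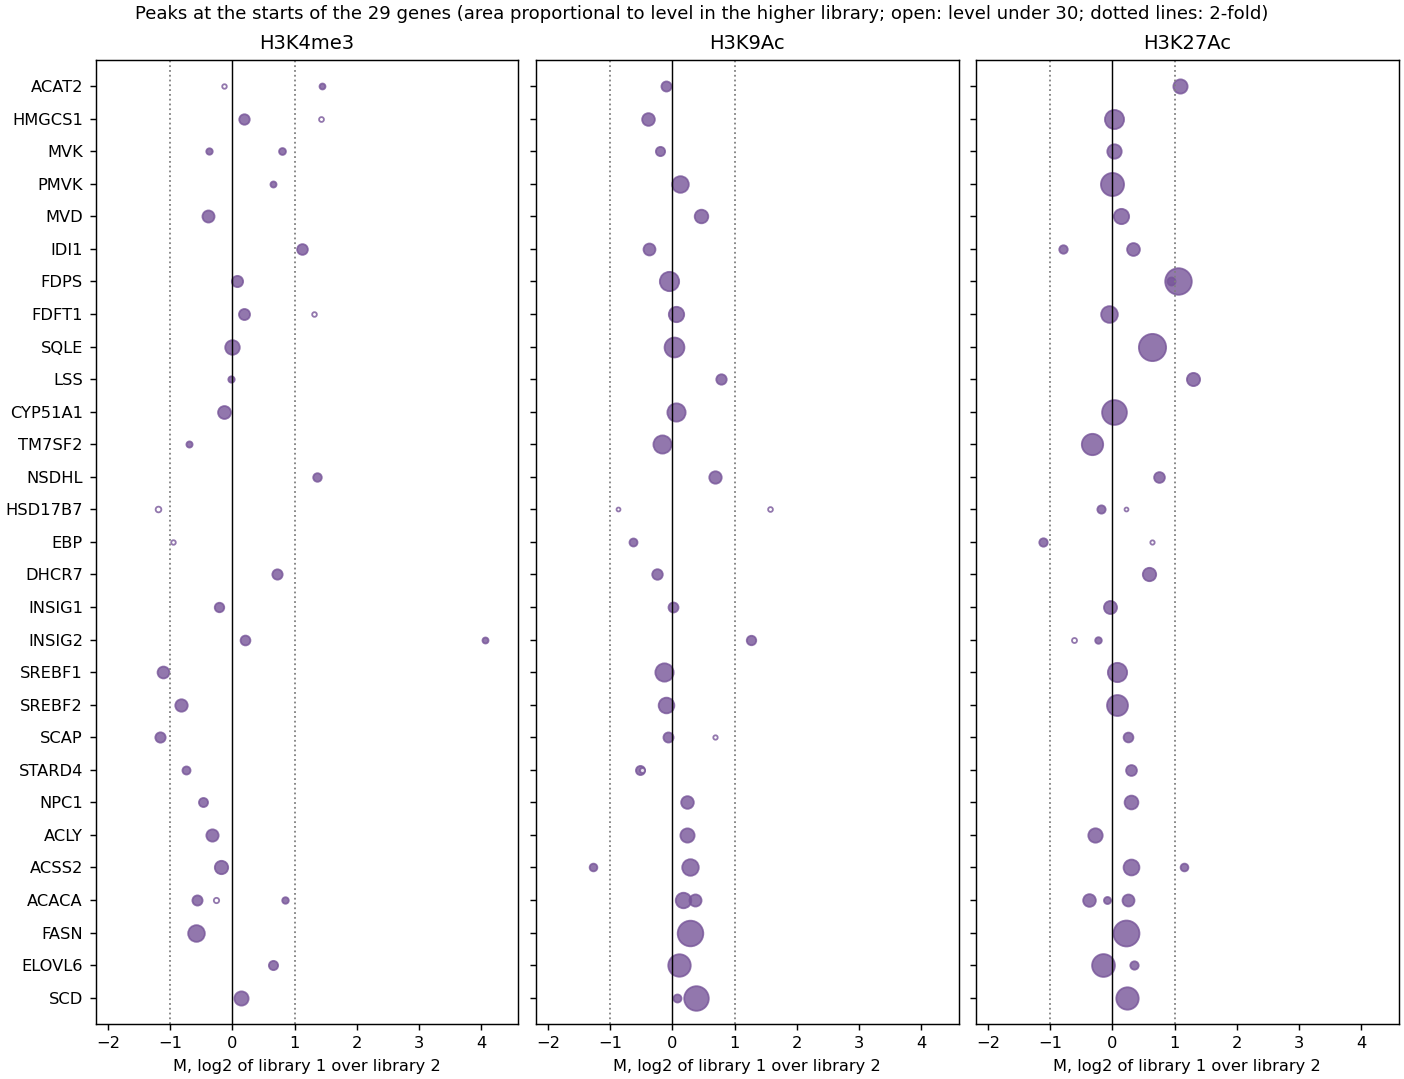
M, the authors' log2 ratio of library 1 over library 2, of each peak at the starts of the 29 genes for the 3 marks; the area of a circle is proportional to the level in the higher library, open circles have levels under 30, and dotted lines mark 2-fold. Most circles lie between the dotted lines, and the INSIG2 peak of H3K4me3 lies alone at 4.06.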

How the data were processed

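RPKM values for 23637 gene symbols were deposited by the authors, with the authors' own log2 ratio and its p-value, raw and adjusted, per the file headers. For each mark the authors deposited a log2 ratio (M), a mean log2 level (A) and a −log10 p-value, per the file headers. Tools named in the submitters' processing notes are TopHat2 2.0.9, Bowtie 1.0.0, MACS2 2.0.10.20130712 and DESeq, with build hg19. How reads were counted is not given in the sources used here. Reads per library at peaks (6 columns) and the input DNA were not used.

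The design was written for counts. As the tables hold RPKM, no count model was fitted. Ratios were computed on log2(RPKM + 0.1), which understates changes of low genes. The limma 3.58.1 fit (R 4.3.3) had time and treatment as terms and took genes that reached an RPKM of 1 in 3 or more libraries. It was tried on simulated data with independent noise, no change over time and no shared reads. That trial therefore does not cover these limits of the design. Peak levels were computed from M and A, and a peak listed at several starts within 20 kb was counted once. Read depth was taken from the step between low values in genes under 300 bp. Promoters were matched by symbol to RefSeq on GRCh38.p14, for 25 of 29 members (not ACAT2, FDFT1, SQLE and FASN), not by hg19 position. Python 3.11.15, pandas 2.3.3, NumPy 2.4.6 and matplotlib 3.10.9 were used.

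The members, lists and thresholds were chosen with earlier results of these data known. Values in every library are given for members past the size rule, for the 8 with the largest limma effects of IL-13 and for the SREBP and INSIG genes with SCAP. Alternatives were another pseudocount, minimum, fold and scaling, limma-trend, each time left out, and other peak limits.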

Additional observations from a re-analysis of the deposited data

Results flagged for a closer look

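TM7SF2 was singled out because its ratio had opposite signs at different times, which was not tested. IL-13 over control gave log2 ratios of 0.18 at 2 hr, 0.12 at 6 hr and -0.41 at 24 hr, so that the value at 24 hr minus the mean of 2 and 6 hr was -0.55. ELOVL6 was singled out for the same reason, with 0.25, 0.17 and -0.25 and a difference of -0.46. Only members with log2 ratios of at least 0.1 in size at each time could be singled out. Each ratio rests on 1 library for each treatment.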

How the results depend on the processing

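At 1.5-fold, 1 member (INSIG1) was higher with IL-13 at 6 hr. Without the filter on low RPKM, limma called 0 members higher and 2 lower at 6 over 2 hr. With libraries scaled to the same median, CYP51A1 reversed at 24 over 6 hr, to -0.22. With ratios centred on all genes, 2 members were 2-fold lower at 24 over 6 hr with IL-13, against 990 of 12530 genes. In the controls 2 were higher and 2 lower, against 1436 and 1191 of 12587 genes. For the marks, a level of 60 left 2 H3K4me3 peaks higher in library 1 and 0 H3K9Ac peaks higher in library 2. At 1.5-fold 9 H3K4me3 peaks were higher in library 1 and 5 in library 2, against 3 and 2 H3K9Ac peaks, while H3K27Ac had 8 and 2. With no minimum level 2 H3K9Ac peaks were higher in library 1, and with the highest peak of each gene 0 were higher in library 2. The shares of all peaks under these alternative peak limits were not computed, so these peak counts have no background beside them. The cause of these shifts was not tested, beyond the looser or stricter limit itself.

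The labels carry no replicate numbers, and time served as the replicate block of the IL-13 effect. With no replicate block 0 members were called, and leaving out each time in turn also gave 0. As 0 of 11953 genes passed with all libraries, these counts of 0 are no check of the result. Counts stayed within 1.5 times the reported ones in 100 cases and moved more in 16. The 100 include counts of 0 under settings that could not affect the members, such as a lower minimum RPKM. Of the values of single genes, 619 kept their side of the threshold or, for a ratio at 1 time, moved by less than the limma SE. Small uncalled values among them could change sign, as the IL-13 effect on PMVK did, from -0.02 to 0.02 without the 24 hr pair. Of the rest, 9 lost and 9 gained a call. The IL-13 effect on INSIG1 lay between 0.43 and 0.56 without each time in turn. With 13.0 to 26.9 megareads a read set and no counts per gene, no counting interval can be given.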
